A study of Mus musculus with 5 samples.

Results

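The IFIT and IFITM genes encode antiviral proteins, and 9 mouse members were followed here in the bulk RNA of microglia, the resident macrophages of the brain. They are Ifit1, Ifit2, Ifit3 and Ifit3b of the IFIT family and Ifitm1, Ifitm2, Ifitm3, Ifitm6 and Ifitm10 of the IFITM family, chosen by gene symbol out of 41388 genes in the counts table, and all 9 were found. The study set microglia that lack A20 against microglia that lack it in part. A20, a protein encoded by Tnfaip3, edits ubiquitin chains and thereby holds inflammatory NF-kB signalling in check.

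The A20 deletion group (3 libraries) is labelled with the genotype eYFP-A20Dmg and described as fully deficient. The control group (2 libraries) is labelled eYFP-A20fl/wt Cx3cr1-CreERT2/+ and described as partially deficient, since these mice carried a floxed and a wild-type A20 allele together with the inducible Cre recombinase, so they are not wild type. Cre was under the control of Cx3cr1, a gene of microglia and other myeloid cells. All mice were on the C57Bl/6 background, were 4 weeks old and had been given 2 mg tamoxifen on postnatal days 14 and 16, and eYFP-positive cells (those carrying a yellow fluorescent reporter) were sorted. Whether each library stands for an animal of its own is not in the labels. The p-values below therefore rest on the spread between libraries, and that spread may be technical in part.

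IFIT proteins are cytoplasmic RNA-binding proteins built from tetratricopeptide repeats. They bind viral RNA and limit its translation. IFITM proteins are small membrane proteins that hinder the fusion of enveloped viruses with the membranes of the cell. Most genes of both families are transcribed at a low level until interferon acts through its receptor on genes whose promoters hold the interferon-stimulated response element (ISRE), and Ifit2, Ifit3 and Ifitm3 are among the genes by which interferon-responsive microglia are recognised.

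The libraries held between 9726334 and 15275199 counts, so that 3 counts corresponded to between 0.192 and 0.306 counts per 1000000 (CPM). Tnfaip3 itself had 294.6, 276.9 and 347.5 CPM in A20 deletion microglia, against 454.1 and 94.75 CPM in the controls (edgeR adjusted p = 0.881). Which exons were removed is not in the labels, so whole-gene counts are no check of the deletion. A20 deletion replicates 2 and 3 stood apart from the other libraries: 4.63% and 3.56% of their counts were mitochondrial, against between 0.847% and 1.19% elsewhere, and genes longer than the median held 37.8% and 38.5% of their counts, against between 44.9% and 47.9%. By Xist and Y-linked counts, A20 deletion replicate 1 and control replicate 1 were female and the other libraries male. The sum of 8 microglial markers, led by Csf1r, was between 34838 and 38453 CPM in A20 deletion microglia and 48316 and 52954 CPM in the controls.

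In the A20 deletion microglia 7 of the 9 members were higher than in the controls: all 4 IFIT genes, and Ifitm1, Ifitm2 and Ifitm3. Ifitm3 and Ifit3 were 14.5-fold and 12.1-fold higher, Ifit1 and Ifit3b 9.91-fold and 9.17-fold. Ifitm10 did not pass the test and Ifitm6 was too rare to be tested. Ifitm1 had 0 counts in both controls and entered the test only through the A20 deletion libraries, so its call gives no support of its own. A gene was called when its p from edgeR's quasi-likelihood test, Benjamini-Hochberg adjusted over the 12240 genes that passed a filter on low counts, was under 0.05. Of those genes 2.08% were called higher and 0.507% lower, against 7 and 0 of the 8 members tested. In the same 7 members every A20 deletion library lay above every control, as in 21.8% of all genes tested.

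**Figure D1:**
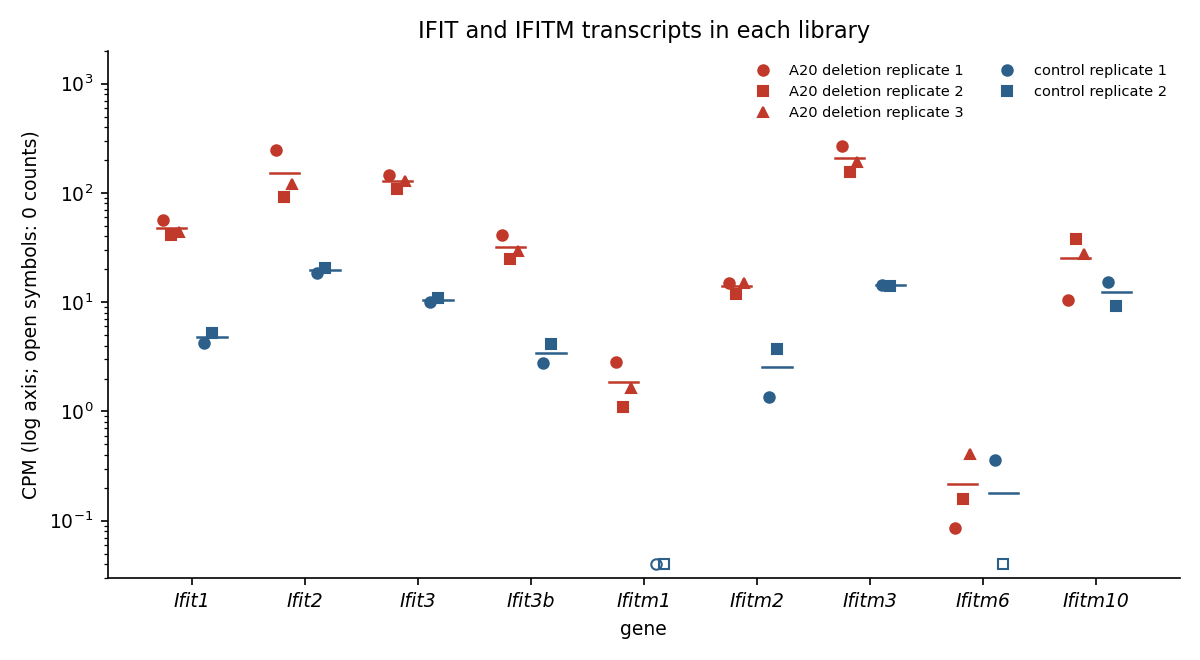
Level of each IFIT and IFITM gene in every library, in CPM on a log axis, with A20 deletion libraries (red) left of controls (blue). Bars are group means and open symbols mark 0 counts. In 7 genes all 3 A20 deletion libraries lie above both controls, while Ifitm6 and Ifitm10 overlap between the groups.

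Among the IFIT genes, Ifit1 encodes the protein that recognises RNA whose cap lacks ribose methylation, a mark of foreign RNA. Ifit1 (ENSMUSG00000034459, GRCm38 chromosome 19, 34640871 to 34650009, plus strand) had 56.75, 41.27 and 44.0 CPM in the A20 deletion libraries, against 4.268 and 5.26 CPM in the controls. The groups were far apart compared with the spread within each of them. Ifit1 was 9.91-fold higher (log2 3.31, SE 0.245, n = 3 and 2, edgeR adjusted p = 0.00249).

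IFIT2 binds AU-rich RNA in human cells, and in mice it protects the brain against neurotropic viruses. Ifit2 (ENSMUSG00000045932, chromosome 19, 34550694 to 34576419, plus strand) had 244.7, 92.21 and 120.1 CPM in the A20 deletion libraries, against 18.42 and 20.66 CPM in the controls. The controls were close together, whereas A20 deletion replicate 1 was 2.65 times as high as replicate 2. Ifit2 was 7.79-fold higher (log2 2.96, SE 0.45, edgeR adjusted p = 0.0227).

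Ifit3 in human cells binds IFIT1 and strengthens its hold on RNA. The mouse gene Ifit3 (ENSMUSG00000074896, chromosome 19, 34583531 to 34588731, plus strand) had 146.3, 108.3 and 128.1 CPM in the A20 deletion libraries, against 10.1 and 10.97 CPM in the controls, and means of 127.6 ± 19.01 and 10.54 ± 0.6139 CPM (SD, n = 3 and 2). Within each group its libraries differed by 1.35 and 1.09 times from highest to lowest, which left the groups well separated (log2 3.60, SE 0.22, edgeR adjusted p = 0.00223).

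Ifit3b is a neighbouring copy of Ifit3 (ENSMUSG00000062488, chromosome 19, 34607970 to 34613401, plus strand). It had 41.41, 24.61 and 29.13 CPM in the A20 deletion libraries, against 2.774 and 4.105 CPM in the controls (log2 3.20, SE 0.33, edgeR adjusted p = 0.00712). Both copies were higher, but their counts cannot be fully separated. Of all 50-base stretches in annotated Ifit3 transcripts 51.2% also occur in Ifit3b, and 44.5% of those in Ifit3b occur in Ifit3. Reads from these stretches fit both genes, and how the counting treated them is not given in the sources used here. The counts of Ifit3b were 0.283, 0.227 and 0.227 times those of Ifit3 in the A20 deletion libraries and 0.275 and 0.374 times in the controls. By contrast, Ifit2 shared 0% of its 50-base stretches with other genes and Ifit1 7.13%, most of them with Ifit1bl2.

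Because these genes were higher together, the promoter windows of all 9 members were searched for the letters of the ISRE core, GAAANNGAAA, on both strands. The windows are RefSeq's for GRCm38.p6 and run from 250 bases before to 50 bases after a start site. The core was found in 5 of the 9 members, against 3.96% of the 9466 genes tested that have a window. Counted by window it was in 3.43% of all 32817. It was found at 2 places in Ifit1, Ifit3, Ifit3b and Ifitm3, against 0.222% of all windows with at least 2. The stretches that hold it are shown 5′ to 3′ on the strand of the gene, with the core in capitals. In the IFIT genes it lies on the opposite strand and so reads TTTCNNTTTC.
Ifit1 (chr19:34640765-34640833, plus strand, from -124 to -56 relative to the start): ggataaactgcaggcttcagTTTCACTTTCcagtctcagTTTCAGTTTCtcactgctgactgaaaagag
Ifit3 (chr19:34583353-34583436, plus strand, from -176 to -93): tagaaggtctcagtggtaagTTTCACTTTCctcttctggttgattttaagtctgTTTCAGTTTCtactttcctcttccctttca
Ifit3b (chr19:34607749-34607832, plus strand, from -208 to -125): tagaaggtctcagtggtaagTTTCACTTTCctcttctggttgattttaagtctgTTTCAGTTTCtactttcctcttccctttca
Ifitm2 (chr7:140955978-140956027, minus strand, from -66 to -17): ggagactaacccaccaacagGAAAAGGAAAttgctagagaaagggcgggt
Ifitm3 (chr7:141010716-141010742, minus strand, from 3 to 29, counted from 1 at the start site): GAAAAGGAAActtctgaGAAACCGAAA

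The stretches of Ifit3 and Ifit3b were identical at 84 of 84 positions. Ifit1 carries the same pair of 10-base cores, TTTCACTTTC and TTTCAGTTTC, at a closer spacing. The core of Ifitm2 and the upstream core of Ifitm3 are the same 10 letters, GAAAAGGAAA. No match was found in either window of Ifit2, in the windows of Ifitm10, or in those of Ifitm1 and Ifitm6, whose RefSeq start lies 855 and 1032 bases from the start of the GENCODE gene. The NF-kB letters GGGANNNNCC, on either strand, occurred in Ifit2 and Ifitm3 (20.7% of all windows). A match is a description of letters and not a binding site.

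Of the IFITM genes, Ifitm3 encodes the member that resides in endosomes and blocks the entry of viruses taken up by endocytosis, such as influenza virus. Ifitm3 (ENSMUSG00000025492, chromosome 7, 141009586 to 141010770, minus strand) had 270.5, 156.5 and 193.7 CPM in the A20 deletion libraries, against 14.44 and 14.11 CPM in the controls. The controls were nearly equal, and the lowest A20 deletion library lay far above them. Ifitm3 was 14.5-fold higher (log2 3.86, SE 0.29, edgeR adjusted p = 0.00249). With each library's trend on gene length removed its log2 fold change was 3.20.

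Ifitm2, a close relative found in endosomes, was less abundant per kilobase of exon than Ifitm3. Ifitm2 (ENSMUSG00000060591, chromosome 7, 140954837 to 140955987, minus strand) had 15.07, 11.95 and 14.87 CPM in the A20 deletion libraries, against 1.352 and 3.721 CPM in the controls. Here the A20 deletion libraries were alike and the controls differed by 2.75 times, on 19 and 58 counts. The change was 5.45-fold (log2 2.45, SE 0.43, edgeR adjusted p = 0.0362). Its size depended on the control, at log2 3.31 (adjusted p = 0.088) with control replicate 2 left out and 1.86 (adjusted p = 0.145) with control replicate 1 left out. It did not pass with the length trend removed (log2 1.75, adjusted p = 0.118). In GENCODE M21, 40.9% of the exonic bases of Ifitm2 are also exonic in Gm45717 on the same strand. No gene with that symbol was found in the counts table. How reads from shared bases were counted is not given, so the counts of Ifitm2 are uncertain.

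Ifitm1, whose protein sits largely at the cell surface, was detected in the A20 deletion libraries only, with 33, 14 and 16 counts, against 0 and 0 counts in the controls. These are 2.859, 1.101 and 1.63 CPM. Set against 3 counts over both controls together, Ifitm1 (ENSMUSG00000025491, chromosome 7, 140967221 to 140969825, plus strand) was at least 18.3-fold higher. The bound covers counting error in the controls only. The 63 counts of the A20 deletion libraries are taken as observed, and reads are not independent molecules. Its edgeR adjusted p of 0.04996 lay at the threshold, and it passed in 9 of 17 alternatives. Since Ifitm1 passed the filter on low counts only through the group where it is high, this p is a description.

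Ifitm6 (ENSMUSG00000059108, chromosome 7, 141015699 to 141017924, minus strand) had 1, 2 and 4 counts in the A20 deletion libraries, against 5 and 0 counts in the controls. The ratio of the pooled counts was 1.22 (95% interval 0.333 to 4.87, exact, counting error only), so no difference was detectable at this depth.

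Ifitm10 (ENSMUSG00000045777, chromosome 7, 142325837 to 142373753, minus strand) lies apart from the cluster of the other IFITM members on that chromosome. It had 10.48, 38.21 and 27.6 CPM in the A20 deletion libraries, against 15.29 and 9.237 CPM in the controls. A20 deletion replicate 1 lay between the controls, and replicates 2 and 3, the libraries with the high mitochondrial share, lay above them. Ifitm10 had a log2 fold change of 1.05 (SE 0.52, edgeR adjusted p = 0.289), and its direction turned to -0.22 with those replicates omitted.

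Levels can be set side by side between genes only per length of transcript. In CPM per kilobase of exon, Ifitm3 was the most abundant member, at 305.2 ± 85.72 in the A20 deletion libraries and 21.06 ± 0.3419 in the controls (SD, n = 3 and 2). In A20 deletion microglia Ifit3 followed at 73.12 ± 10.89 and Ifit2 at 38.79 ± 20.67. Their ranges overlapped across libraries, but Ifit3 lay above Ifit2 within each of the 3. Below them the ranges of Ifitm2 (21.32 ± 2.67), Ifit1 (17.82 ± 3.11) and Ifit3b (15.86 ± 4.348) overlapped across libraries, while within each library they came in this order. These differences between genes were not tested. Of the 50-base stretches, 51.2% in Ifit3, 45% in Ifit3b and 48.5% in Ifitm2 also occur in other genes, against 7.13% in Ifit1. How reads from shared stretches were counted is not given, so the order may depend on it. Ifitm10 (5.31 ± 2.921) and Ifitm1 (1.703 ± 0.8247) overlapped too, and Ifitm6 was lowest at 0.2399 ± 0.1863. In the controls Ifit3 (6.037 ± 0.3518) and Ifit2 (4.976 ± 0.4019) again came next after Ifitm3, without overlap. Ifitm2 (3.872 ± 2.557) overlapped Ifit2 and Ifitm10 (2.561 ± 0.8943), while Ifit1 and Ifit3b, at 1.794 ± 0.2641 and 1.72 ± 0.4707, overlapped each other and Ifitm10.

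The makeup of each family also differed between libraries. Ifitm3 made up 90.5%, 75.3% and 81.3% of IFITM counts in the A20 deletion libraries, against 45.9% and 52.1% in the controls. Ifitm10 took 3.51%, 18.4% and 11.6% in the A20 deletion libraries, against 48.6% and 34.1% in the controls. Both groups were thus separate in these shares. Shares within a family depend on each other, so the 2 genes do not give separate results. The CPM of Ifitm10 overlapped between the groups, with means of 25.43 ± 13.99 in A20 deletion and 12.27 ± 4.283 in control libraries (SD, n = 3 and 2).

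In the IFIT family the groups were separate in the shares of Ifit2 and Ifit3 only, and A20 deletion replicate 1 lay close to the controls. The shares of Ifit1 and Ifit3b overlapped between the groups. The part of Ifit2 in IFIT counts was 50%, 34.6% and 37.4% in A20 deletion replicates 1 to 3, against 51.8% and 50.4% in the controls. The 50% and 50.4% rest on 5646 and 639 IFIT counts, and whether they differ by more than counting error was not tested. Counts of Ifit2 were 1.67, 0.851 and 0.937 times those of Ifit3 in the A20 deletion libraries, against 1.82 and 1.88 times in the controls. The ratio was below both controls in every A20 deletion library, and lowest in the libraries with the low share of long genes, and Ifit2 has the longer exons, 3927 bases against 1745 in Ifit3. The part of transcript length in this was not tested. With the length trend removed the log2 fold changes of Ifit2 and Ifit3 were 2.94 and 3.29.

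**Figure D2:**
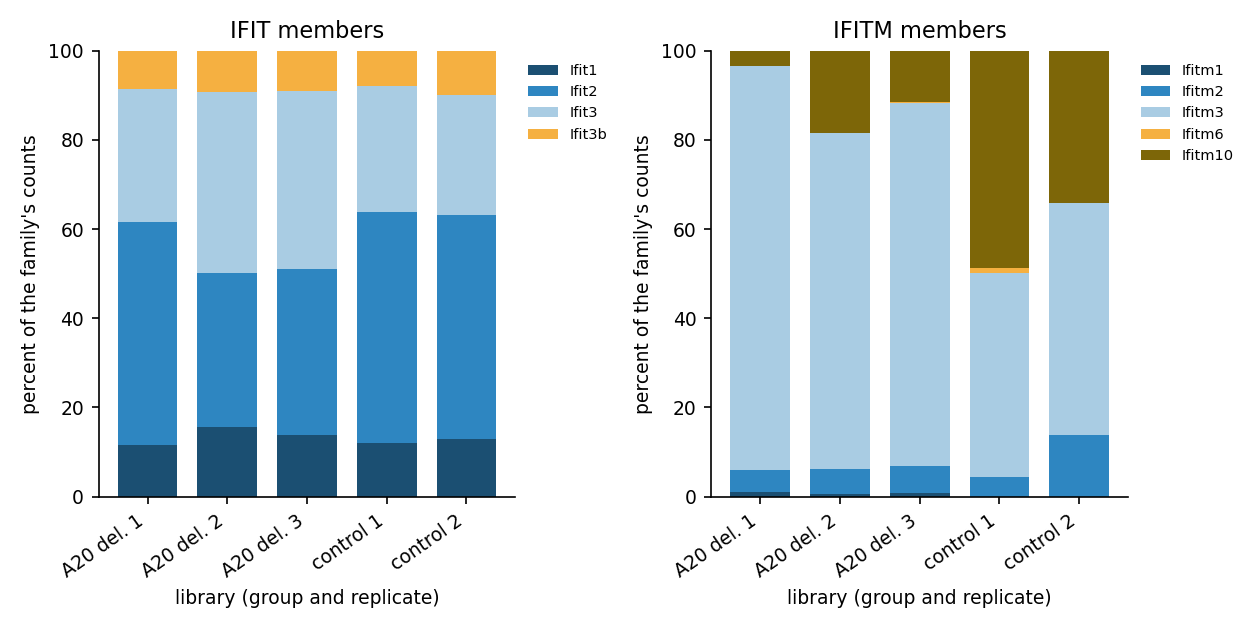
Share of each member in the counts of its family, in percent, for every library, with A20 deletion (A20 del.) replicates 1 to 3 left of control replicates 1 and 2. Ifitm3 takes between 75.3% and 90.5% of IFITM counts in A20 deletion libraries and 45.9% and 52.1% in controls, and Ifit2 is lowest in A20 deletion replicates 2 and 3.

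The 3 A20 deletion libraries fell in the same order in all 7 members called: replicate 1 was highest, then replicate 3, then replicate 2. This order held in 20.4% of the genes tested and in 42.4% of the 255 called higher. Some steps were small. Ifitm2 had 15.07 and 14.87 CPM in replicates 1 and 3, on 174 and 146 counts. Ifit1 had 44.0 and 41.27 CPM in replicates 3 and 2, and Ifitm1 had 16 and 14 counts there. Whether the order exceeds counting error was not tested, and Ifit3 and Ifit3b share sequence. Ifit3 lay 3.80, 3.36 and 3.60 above the control mean on the log2 scale in replicates 1 to 3, Ifitm3 4.24, 3.46 and 3.76, and Ifit2 3.65, 2.24 and 2.62. The distance between replicate 1 and the others was thus wider for Ifit2. Ifitm10 ran in the opposite order.

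**Figure D3:**
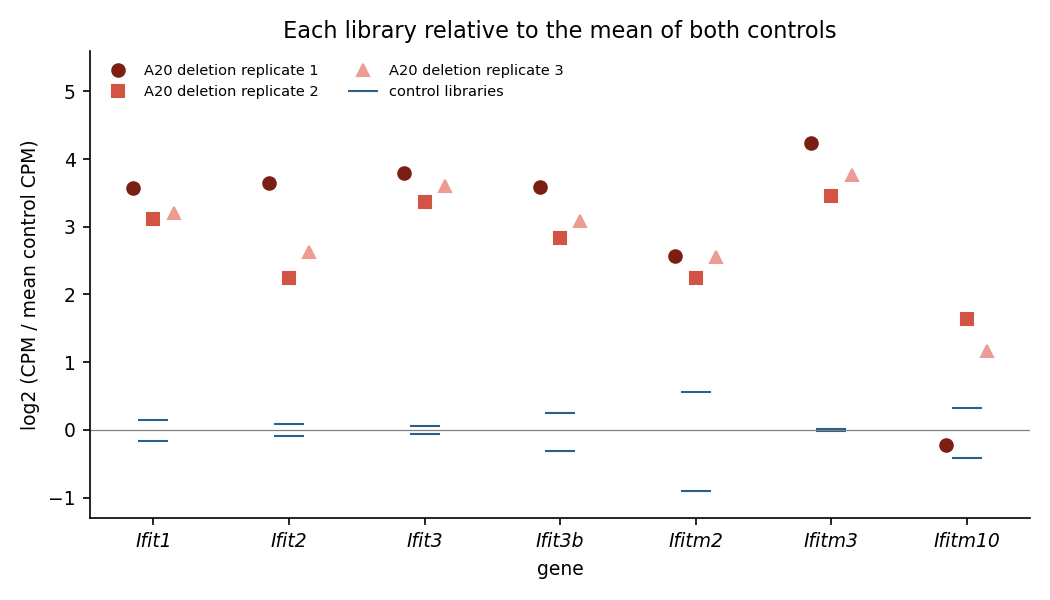
Each library's CPM over the mean CPM of both controls, on a log2 scale, for the 7 tested members with control counts. A20 deletion replicates 1 to 3 (red shades) lie above both controls (blue dashes) in 6 genes with replicate 1 highest, and in Ifitm10 replicate 1 lies among the controls.

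In the 6 called members with control counts every A20 deletion library lay above every control. The same direction within each sex was therefore fixed in advance and gives no further support. In the female libraries, 1 of each group, Ifit3 was 14.5-fold and Ifitm3 18.7-fold higher in A20 deletion, and in the male libraries, 2 and 1, they were 10.8-fold and 12.4-fold higher. Ifit2 was 13.3-fold higher in the female and 5.14-fold higher in the male libraries, Ifitm2 11.2-fold and 3.6-fold. Ifitm10 was 0.685 times the control level in the female and 3.56 times in the male libraries. With so few libraries a difference between the sexes was not tested. The male A20 deletion libraries are also those with the high mitochondrial share, so sex and that share cannot be told apart within this group.

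The calls rested on having both controls. Without control replicate 2, 0 of the 8 members tested passed by edgeR and 0% of all genes were called higher. In that fit 7 members had an unadjusted p under 0.05, against 10.2% of all genes, and their lowest adjusted p was 0.0696. Without control replicate 1 Ifit3 alone passed among the members (adjusted p = 0.0475), with 0.123% of all genes called higher. Without A20 deletion replicate 3 the members called were Ifit1, Ifit3, Ifit3b and Ifitm3 (0.727% of all genes), and Ifit2 joined them without replicate 2 (1.35%). Without replicate 1 all 8 passed, Ifitm10 included (log2 1.40, adjusted p = 0.00784), but 15.7% of all genes were then called higher. Ifitm1 and Ifitm2 were the members lost with the length trend removed (2.14% of all genes called higher). With replicates 2 and 3 both omitted the 7 passed again (2.64% of all genes), with log2 fold changes of 3.80 for Ifit3, 3.66 for Ifit2 and 4.25 for Ifitm3. The remaining A20 deletion library is then assumed to vary like the controls.

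**Figure D4:**
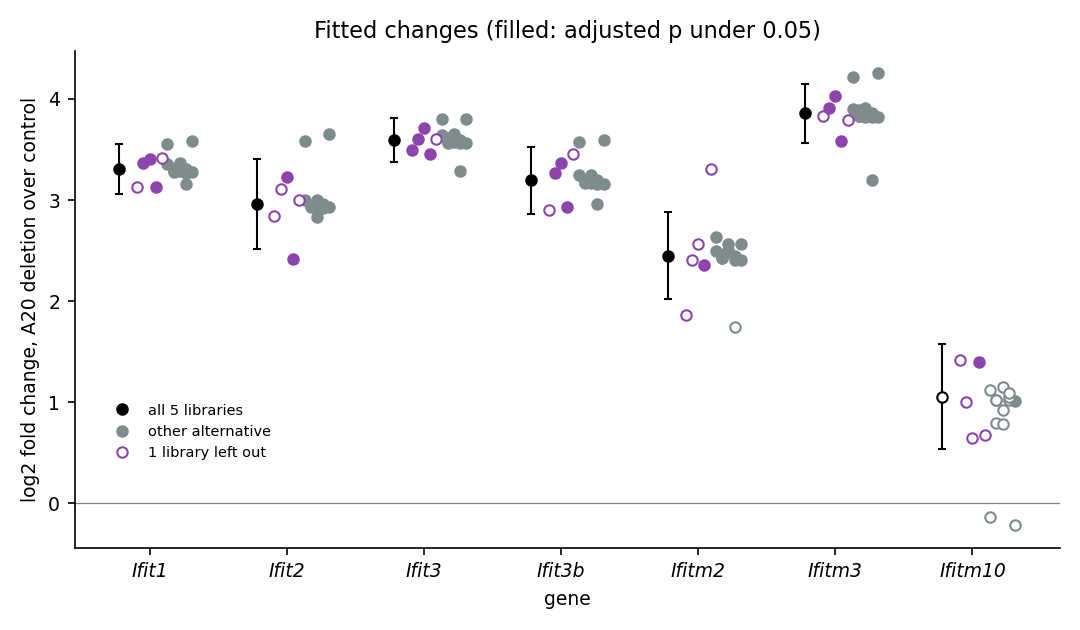
Fitted log2 fold change, A20 deletion over control, of the 7 tested members with control counts. Black points with bars are the value and SE from all 5 libraries, purple points leave out 1 library each and grey points are the other alternatives; filled points have an adjusted p under 0.05. Ifit3 lies between 3.29 and 3.80 and Ifitm3 between 3.20 and 4.25 over the alternatives, while Ifitm10 falls on either side of 0.

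Other genes of the interferon pathway were read from lists. Of 14 genes of type I interferon signalling 4 were called higher and 0 lower, against 2.08% and 0.507% of all genes tested. The median log2 fold change was 0.49 in the list and 0.05 over all genes tested. Among those with the smallest p were Irf7, a transcription factor that amplifies interferon production (14.8-fold, edgeR adjusted p = 0.00655), and Usp18, a brake on the interferon receptor (8.97-fold, adjusted p = 0.0134). Ifnb1, which encodes interferon beta, was also called, but with 0 counts in both controls it entered the test only through the A20 deletion libraries. Its place among the 4 genes called therefore gives no support of its own. The receptor genes Ifnar1 and Ifnar2 differed by -0.06 and 0.01 on the log2 scale and were not called; they are named here with their values known.

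Of 36 other interferon-stimulated antiviral genes 35 were tested. Of these 22 were called higher and 0 lower, with a median log2 fold change of 2.21. Oas1g is among the 22, with 6 and 11 counts in the controls. It passed the filter on low counts only through the A20 deletion libraries, so its call gives no support of its own. Groups did not overlap in 33 of them, with A20 deletion higher, against 21.8% of all genes tested. Ifi27l2a (9.07-fold), Rsad2 (12.6-fold) and Isg15 (9.47-fold) had the smallest p. By edgeR 33 were called with A20 deletion replicates 2 and 3 omitted, 14 without A20 deletion replicate 3, 2 without control replicate 1 and 0 without control replicate 2, where 10.2% of all genes had an unadjusted p under 0.05.

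Genes that act with these proteins were read from 2 further lists. Of 8 genes of cap methylation and IFIT partners 0 were called in either direction (median log2 fold change -0.13). The smallest p belonged to Eif3e, a subunit of the translation factor that IFIT proteins bind (144.5 ± 14.29 CPM in A20 deletion and 82.09 ± 3.926 CPM in control libraries, edgeR adjusted p = 0.0556), the kinase Tbk1 (adjusted p = 0.347) and the cap methyltransferase gene Cmtr2 (adjusted p = 0.353). Of 6 genes for IFITM3 modifiers and partners likewise 0 were called (median -0.07). The smallest p belonged to Nedd4, a ubiquitin ligase that marks IFITM3 for breakdown (5.978, 13.36 and 18.84 CPM in A20 deletion, against 2.845 and 3.143 CPM in control libraries, edgeR adjusted p = 0.0846), the kinase gene Fyn (adjusted p = 0.131) and the protease gene Zmpste24 (adjusted p = 0.234). In 7 of 18 alternatives some of these genes were called, with Eif3e higher in each of the 7. Nedd4 was called higher with no filter, with DESeq2, with a term for sex and without A20 deletion replicate 1. Fyn was called lower with DESeq2 and without A20 deletion replicate 1, and Zmpste24 lower without A20 deletion replicate 1. With no filter 1701 of all 20699 genes tested were called, and with DESeq2 1110 of 12240. With a term for sex it was 824 of 12240, and without A20 deletion replicate 1 it was 3923 of 12120. Eif3e alone was called with upper-quartile scaling, a stricter filter and the length trend removed. There it was 329 of 12240, 359 of 9483 and 340 of 12240 genes.

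Genes with the most similar profile were found by the root mean square difference in log2 CPM centred over the 5 libraries, given as a description. For Ifit1 they were Isg15 (0.0922), H2-Q5 (0.129) and Ifit3b (0.135). For Ifit2 they were Usp18 (0.15), Axl (0.154) and Mmp25 (0.159), and for Ifit3 H2-Q5 (0.122), Ighg2b (0.162) and Rsad2 (0.167). For Ifitm3 they were C2 (0.0844), Irf7 (0.125) and H2-Q6 (0.142), and for Ifitm2 Kif15 (0.107), Tmem51 (0.168) and Il18bp (0.169). Between members the difference was smallest for Ifit1 and Ifit3b (0.135), and was 0.173 for Ifit3 and Ifitm3 and 0.493 for Ifit2 and Ifit3. The H2-Q genes are near-identical copies, so their counts are uncertain.

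IFITM genes are also transcribed in endothelial cells and blood leukocytes, so markers of other cells were read beside them. Fewer cells of a type and less RNA per cell cannot be told apart in bulk RNA. Of 5 endothelial markers 4 were higher in A20 deletion with no overlap between the groups, against 21.8% of all genes tested, though none was called. These 4 passed the filter on low counts only with the A20 deletion libraries, so their number gives no support of its own. Pecam1 was lower with no overlap, at 26.25, 35.22 and 28.01 CPM in A20 deletion libraries, against 50.58 and 53.11 CPM in controls. The summed level was between 43.9 and 62.4 CPM in A20 deletion libraries and 52.1 and 58.1 CPM in controls, led by Pecam1, which microglia also express. Cldn5, a tight junction gene of brain endothelium, had 228, 34 and 73 counts in A20 deletion libraries, against 2 and 30 counts in controls. Monocyte markers summed to between 23.7 and 41.4 CPM in A20 deletion libraries and 10.8 and 15.9 CPM in controls, and 1 of 5, Plac8, was called higher (8.81-fold). Ly6c2, a defining marker of blood monocytes, had between 7 and 12 counts in A20 deletion libraries and 1 and 0 counts in controls. T cell markers summed to between 4.48 and 6.5 CPM in A20 deletion libraries and 0.569 and 1.22 CPM in controls, with Cd4 highest. Cd3e had only 4, 5 and 4 counts in A20 deletion libraries, against 0 counts in both controls, and was too rare to be tested. Cldn5, Ly6c2 and Cd3e were singled out with their values known.

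Neutrophil markers, led by S100a9, summed to between 0.55 and 7.02 CPM in A20 deletion libraries and 0.321 and 12.9 CPM in controls. NK cell markers, led by Klrd1, summed to between 0.611 and 2.69 CPM in A20 deletion libraries and 2.56 and 5.84 CPM in controls. B cell markers rested on Cd79b (between 37.6 and 50.42 CPM in A20 deletion libraries, 39.05 and 39.0 CPM in controls). Border-associated macrophage markers, led by Mrc1, lay between 72.7 and 85 CPM in A20 deletion libraries and at 51.8 and 112 CPM in controls, and pericyte markers, led by Rgs5, between 4.07 and 13.3 CPM in A20 deletion libraries and at 6.83 and 2.76 CPM in controls. Astrocyte markers, led by Slc1a2, stood at 61.6, 234 and 229 CPM in A20 deletion libraries and 78.7 and 121 CPM in controls. Oligodendrocyte markers, led by Mbp, stood at 94.6, 189 and 179 CPM in A20 deletion libraries and 72.1 and 94.9 CPM in controls. Neuronal markers, led by Snap25, lay between 6.52 and 7.94 CPM in A20 deletion libraries and at 4.69 and 1.99 CPM in controls. The part of other cells in the IFIT and IFITM results was not tested.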

How the data were processed

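RNA was sequenced from sorted microglia, 3 A20 deletion and 2 control libraries. The deposited table holds unnormalized counts of reads per Ensembl gene. Per the submitters' processing notes, the tools and build named are STAR 2.4.0j, featureCounts, DESeq2 1.22.1 and GRCm38. The sources used here do not give the annotation release, strandedness or the handling of multi-mapping reads. Of 41388 genes 40254 matched a GENCODE M21 symbol, and positions and exon lengths are from GENCODE M21 (GRCm38).

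The test was edgeR 4.0.16 (R 4.3.3) with filterByExpr (minimum count 10, minimum total 15), TMM scaling, and the two-sided quasi-likelihood test with no covariate. CPM are per 1000000 of the scaled library total. SEs of log2 fold changes were derived from the F statistic and are approximate. A count of 0 was bounded at 3 counts. Alternatives were other scalings and filters, DESeq2 1.42.0, limma-voom (limma 3.58.1), a robust fit, an adjusted p under 0.01, each library omitted in turn, A20 deletion replicates 2 and 3 omitted, and terms for mitochondrial share, sex and replicate number. Removal of a length trend was added after the data were seen. Simulated counts with known changes were used to test the procedure.

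Members, lists and tests were chosen with earlier results of these data known. Named genes are the 9 members, the other genes of both families, per pathway list up to 3 genes with the smallest p, the 3 genes nearest in profile to Ifit1, Ifit2, Ifit3, Ifitm2 and Ifitm3, and the highest marker of each list of cells. Tnfaip3 is given as the targeted gene. Ifnar1, Ifnar2, Ifnb1, Oas1g, Cldn5, Ly6c2 and Cd3e lie outside this rule and were picked with their values known. Some genes of these lists are not reported here. Libraries of a group differed by more than sampling noise (chi-square between 14.4 and 76.5 per degree of freedom).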

Additional observations from a re-analysis of the deposited data

How the results depend on the processing

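Of the 12240 genes 317 were called, 255 higher and 62 lower, with 7 members and 26 of the 64 pathway genes among them. At an adjusted p under 0.01 these numbers were 58, 4 and 14. The number of all genes called was 1701 with no filter, 1110 with DESeq2, 211 with limma-voom and 824 with a term for sex, and it stayed within 1.5 times with the other scalings and fits. Leaving out each library in turn gave between 0 and 3923 genes, between 0 and 8 members and between 0 and 40 pathway genes. The lowest values came without control replicate 2 and the highest without A20 deletion replicate 1, where the groups coincide with the mitochondrial share. Of 143 values of single members, 116 kept direction and side of the threshold, 23 no longer passed, 2 newly passed and 2 reversed. Both reversals were Ifitm10, at -0.22 with A20 deletion replicates 2 and 3 omitted and -0.14 with the mitochondrial share as a covariate; the cause was not tested. With the replicate block 260 genes, 6 members (all but Ifitm1, adjusted p = 0.095) and 27 pathway genes were called. The deviations of same-numbered libraries correlated at 0.260 and 0.167 for numbers 1 and 2, which are also of the same sex, but with 2 shared numbers this does not establish a pairing. With the length trend removed 5 members were called, without Ifitm1 and Ifitm2. Depth limits Ifitm1 and Ifitm6, and 2 controls limit every call.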

Other observations

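Among the other genes of these families only Ifit1bl1 had enough counts to be tested. Ifit1bl1, which lies among the IFIT genes, had 101, 72 and 42 counts in the A20 deletion libraries, against 15 and 2 counts in the controls. The groups did not overlap, but Ifit1bl1 was not called (log2 fold change 3.39, SE 0.80, edgeR adjusted p = 0.0854). It passed the filter on low counts only with the A20 deletion libraries, so this p is a description. Ifit1bl2, on the opposite strand upstream of Ifit1, had 0, 4 and 4 counts in the A20 deletion libraries and 1 and 0 counts in the controls. Ifitm7 had 0, 2 and 0 counts in A20 deletion and 0 in control libraries, and Ifitm5, known from bone, had 0 counts in every library.

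Ifnb1, which encodes interferon beta, was counted 21, 48 and 31 times in A20 deletion replicates 1 to 3 and 0 times in both controls. Set against 3 counts over both controls together, it was at least 29-fold higher (edgeR adjusted p = 0.0267). The bound covers counting error in the controls only, with the A20 deletion counts taken as observed. Those counts are 1.819, 3.773 and 3.158 CPM, with exact 95% counting intervals of 1.13 to 2.78, 2.78 to 5 and 2.15 to 4.48 CPM. Replicate 1 was thus lowest in Ifnb1 and highest in the 7 IFIT and IFITM members called. The intervals of replicates 1 and 2 meet at their ends and those of 1 and 3 overlap, and the order was not tested. Ifnb1 was chosen after its values were seen, and it entered the test only through the A20 deletion libraries, so its p is a description.

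Among genes with a RefSeq promoter window, the ISRE core GAAANNGAAA occurred in at least 1 window of 19.3% of the 181 genes called higher when the members are left out, of 4.55% of the 44 called lower and of 3.96% of the 9466 tested. This is given as a description, with no test, and genes with several start sites have several windows.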
